A study of Mus musculus with 21 samples.

Results

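The genes described here are Blm and the genes of its closest helicase relatives and protein partners, 8 genes chosen by name out of 22180 genes tested. They are the RecQ helicase genes Blm, Wrn, Recql, Recql4 and Recql5, and the genes of the proteins that act in one complex with the BLM protein, Top3a, Rmi1 and Rmi2. Blm was picked because earlier results of these same arrays showed it low after tamoxifen in Lgr5GFP high and low cells, so its own values are given as a description without a test. A gene was read from the probe set (several probes against one transcript) that the platform annotation assigned to that gene and no other, and each of the 8 genes had 1 such probe set. There is therefore no brighter or dimmer row of Blm to compare.

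Cells of the mouse stomach corpus were sorted by the brightness of an Lgr5GFP reporter into high, low and negative populations, and their total RNA was amplified and hybridised to 21 microarrays, 1 sample per array. The tamoxifen mice received 0.27 mg of the drug per g of body weight 24 hours before isolation, a treatment the labels call injury, and gave 4 arrays for each population. The control mice were uninjected and gave 3 arrays for each population. All mice carried the reporter, whose allele, like the strain, age and sex of the mice, was not given in the sources used here. No group received the vehicle alone, and the design text speaks of individual sorting runs without tying an array to a run, so the drug, the injection and any difference in sorting cannot be told apart in any comparison of tamoxifen with control. The series design describes the arrays of a group as technical replicates from individual sorting runs, so a p-value measures only the spread between these samples. In a bulk sorted sample, fewer cells of a type and less RNA per cell cannot be told apart.

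RecQ helicases unwind branched and damaged DNA. BLM, together with topoisomerase III alpha (Top3a) and the OB-fold proteins of Rmi1 and Rmi2, takes apart the double Holliday junctions that form in homologous recombination so that sister chromatids separate without crossing over, and loss of BLM causes Bloom syndrome, with many sister chromatid exchanges and a high risk of cancer. Genes of this kind are best known from dividing cells, whereas chief cells, which sit deep in the corpus gland and secrete pepsinogen, divide rarely.

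RefSeq promoter entries (build GRCm38.p6) were matched for 4 of the 8 genes, and 2 are shown, that of Blm, the gene whose level moved most between groups, and that of Recql, the partner with a called difference. Each is the 250 bases before a transcription start, written 5′ to 3′ on the minus strand, with the 5 letters of the CCAAT box (CCAAT, or ATTGG when it lies on the other strand) in capitals. The Blm stretch is chr7:80534999-80535248 and the Recql stretch, the first of 2 entries for that gene, is chr6:142387088-142387337.
Blm: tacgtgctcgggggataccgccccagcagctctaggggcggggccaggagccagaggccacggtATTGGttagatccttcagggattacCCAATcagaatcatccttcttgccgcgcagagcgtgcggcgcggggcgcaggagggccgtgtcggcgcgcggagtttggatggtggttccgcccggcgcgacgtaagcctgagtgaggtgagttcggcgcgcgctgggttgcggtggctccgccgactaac
Recql: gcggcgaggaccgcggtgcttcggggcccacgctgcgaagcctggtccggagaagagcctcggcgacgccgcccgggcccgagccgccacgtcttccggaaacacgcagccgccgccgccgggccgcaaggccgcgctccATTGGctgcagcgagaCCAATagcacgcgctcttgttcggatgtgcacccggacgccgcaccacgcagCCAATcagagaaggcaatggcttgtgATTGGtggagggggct
The Blm stretch is 66.8% G and C and holds 2 CCAAT boxes, 1 in each orientation, and the Recql stretch is 70.4% G and C and holds 4. The median over 32851 promoter entries was 52.4% G and C, and 33.8% of them held a CCAAT box. On either strand, neither stretch held the cell cycle homology letters TTTGAA (found in 16.0% of entries), the letters TGACGT of the cAMP and stress response elements (6.5%) or their longer form TGACGTG (1.6%), whose matches are a subset of the former. These matches describe the letters of the 2 windows only.

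Blm was high in 2 of the 6 groups and lower in the other 4. All values are the deposited log2 signals, on which a difference of 1 is a change of 2-fold. In control low cells the 3 arrays read 8.71, 9.27 and 8.24, and in control high cells 7.50, 8.50 and 7.81. In control negative cells they read 5.95, 5.79 and 5.53. These 2 reporter-bearing control populations overlapped each other, and the lowest of their arrays lay 1.55 above the highest control negative array.

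After tamoxifen the 4 high arrays read 5.00, 5.05, 4.50 and 4.92, the 4 low arrays 5.20, 4.85, 5.31 and 4.62, and the 4 negative arrays 5.27, 4.70, 5.67 and 5.56. The 3 tamoxifen groups overlapped one another, and no tamoxifen array of any population reached the control high or control low range. In the order of the means, control low cells were highest at 8.74 ± 0.51 (SD, n = 3), followed by control high cells at 7.93 ± 0.51 (n = 3), control negative cells at 5.76 ± 0.21 (n = 3), tamoxifen negative cells at 5.30 ± 0.44 (n = 4), tamoxifen low cells at 4.99 ± 0.32 (n = 4) and tamoxifen high cells at 4.87 ± 0.25 (n = 4). Every neighbouring pair in that order overlapped except control high and control negative cells. The control negative arrays, 5.53 to 5.95, overlapped the tamoxifen negative arrays. They lay above every tamoxifen high array (highest 5.05) and every tamoxifen low array (highest 5.31).

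**Figure D1:**
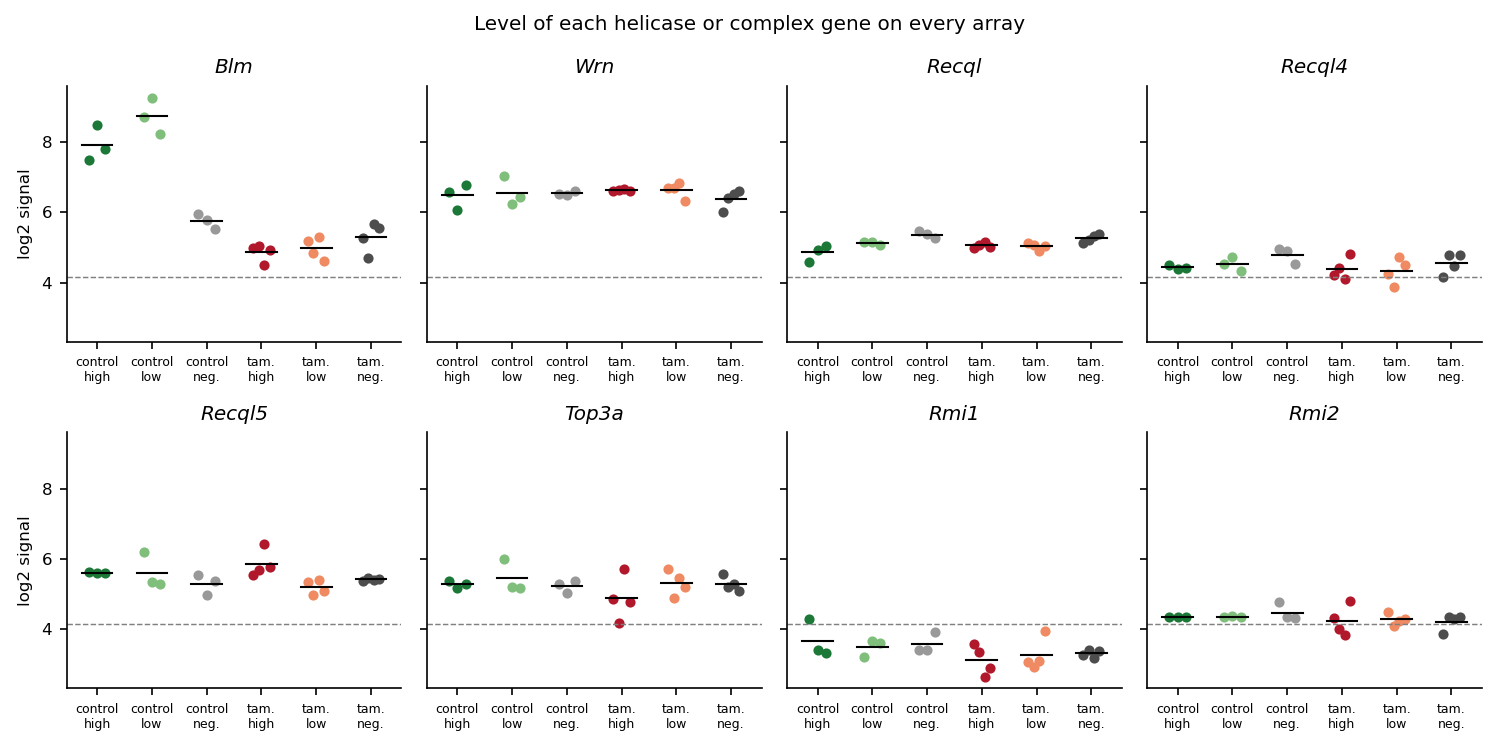
Level of each of the 8 genes on every array, as log2 signal on a common axis, with 1 point per array, a bar at the group mean and the groups along the horizontal axis (tam., tamoxifen; neg., negative). The dashed line is the 95th percentile of olfactory receptor genes, 4.16. The Blm points of control high and control low cells lie between 7.50 and 9.27 and all its other points between 4.50 and 5.95, whereas the 6 groups of the other 7 genes lie close together.

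The Blm signal of tamoxifen mice was 3.07 ± 0.27 (SE) log2 units below that of control mice in high cells, 8.37-fold lower, and 3.74 ± 0.27 below it in low cells, 13.4-fold lower. In negative cells the difference was 0.45 ± 0.27 below control, 1.37-fold lower, and the groups overlapped. The difference in high cells minus that in negative cells was -2.61 ± 0.38, and that in low cells minus that in negative cells -3.29 ± 0.38, a pattern for which the gene was chosen. Control negative cells began at 5.76, and the 95th percentile of olfactory receptor genes was 4.16. A fall as large as in high or low cells could therefore not have been read in full in negative cells. Leaving out each array in turn, the difference ran from -3.28 to -2.78 in high cells and from -3.99 to -3.48 in low cells. Over all 21 arrays Blm had an SD of 1.53, and 99.3% of the genes had a smaller one.

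Arrays of different populations share numbers in their titles, and what a number marks was not given in the sources used here. Between control arrays of the same number, Blm in high cells exceeded that in negative cells by 1.55, 2.70 and 2.28, and Blm in low cells did so by 2.76, 3.47 and 2.71. It was also higher in low than in high cells for each of the 3 control numbers, by 1.21, 0.77 and 0.44. In tamoxifen mice the differences between high and negative arrays of the same number were 0.30, -0.63 and -1.06 and those between low and negative cells 0.50, -0.83 and -0.25, with no common direction.

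Markers of the stomach's cell types moved with Blm in part. The Lgr5 gene itself followed the sort, and averaged 8.79 in control high, 7.56 in control low and 4.41 in control negative cells, and 8.43, 6.70 and 4.59 in the tamoxifen groups. The pepsinogen gene Pgc was between 13.1 and 13.4 on every array, close to the highest signal of any probe set, 13.55, where a difference may not be readable. The mean of 8 chief cell markers, which include Pgc, was 9.97 (9.53 to 10.3 over arrays) in control high and 10.5 (10.4 to 10.7) in control low cells, against 9.43 (9.31 to 9.50) in control negative cells, and 9.51, 9.52 and 9.10 in tamoxifen high, low and negative cells. Of these 8 markers 1 was called lower with tamoxifen in high cells (0 in the fit of only the groups compared and without tamoxifen high replicate 2 or control high replicate 2 or 3), 3 in low cells and 0 in negative cells, where 1.04%, 2.98% and 0.703% of all genes were called lower.

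The tuft cell list (10 markers) averaged 9.98 in control high, 8.39 in control low and 6.77 in control negative cells, and 8.70, 5.59 and 5.69 in the matching tamoxifen groups, and 9 of its 10 markers were called lower with tamoxifen in low cells (6 without control low replicate 1), where 2.98% of all genes were, and 0 in high cells (3 without tamoxifen high replicate 4). The parietal cell list (8 markers) averaged 7.41, 8.93 and 7.68 in the control groups and 6.44, 7.64 and 6.55 in the tamoxifen groups, with 3, 4 and 3 markers called lower in high, low and negative cells, against 1.04%, 2.98% and 0.703% of all genes. The parietal count in high cells was 0 in the fit of only the groups compared, that in low cells was 2 without control low replicate 1, and that in negative cells was 1 without tamoxifen negative replicate 2 or 3 or control negative replicate 1 or 3.

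Other marker lists differed with tamoxifen too. The mucous neck cell list (5 markers) averaged 9.70, 10.04 and 10.58 in the control groups, in the order high, low and negative, and 9.39, 8.38 and 8.71 with tamoxifen. Of its markers 0, 2 and 3 were called lower, where 1.04%, 2.98% and 0.703% of all genes were. The count in low cells was 4 without tamoxifen low replicate 4, and that in negative cells was 1 without tamoxifen negative replicate 2 or 3 or any 1 control negative array. The endocrine cell list (8 markers) averaged 5.56, 8.31 and 8.04 in the control groups and 5.86, 6.76 and 9.39 with tamoxifen. In low cells 2 of its markers were called lower, where 2.98% of all genes were. In negative cells 1 was called higher (0 without control negative replicate 1, 2 without tamoxifen negative replicate 4), where 359 of 22180 genes were. The mast cell list (6 markers) averaged 3.82, 3.82 and 6.21 in the control groups and 3.62, 3.51 and 4.51 with tamoxifen. In negative cells 4 of its markers were called lower, where 0.703% of all genes were. In low cells 1 was (0 without tamoxifen low replicate 3 or control low replicate 1), where 2.98% of all genes were. The surface pit cell list (5 markers) averaged 8.17, 8.81 and 11.9 in the control groups and 7.85, 9.82 and 11.5 with tamoxifen. In low cells 1 of its markers was called higher (2 without tamoxifen low replicate 3), where 5.35% of all genes were. Immune cell (4.13 to 4.87), fibroblast and muscle (3.76 to 4.14) and endothelial cell (3.34 to 4.03) lists stayed near the level of 4.16 below which 95% of 1105 olfactory receptor genes lay, a guide to background because those genes are used mainly in the nose. The part of the cell types in the Blm difference was not tested.

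None of the 4 other RecQ helicase genes passed the test for a tamoxifen difference in any population. It was passed by 2.73%, 8.32% and 2.32% of all genes in high, low and negative cells. Wrn encodes the helicase and exonuclease lost in Werner syndrome, Recql the helicase RECQ1, which helps to restart stalled replication forks, Recql4 a helicase needed for the start of DNA replication, and Recql5 a helicase that also binds RNA polymerase II. In high cells the tamoxifen minus control differences were 0.15 ± 0.20 (SE) for Wrn, 0.20 ± 0.13 for Recql, -0.05 ± 0.21 for Recql4 and 0.25 ± 0.22 for Recql5. In low cells they were 0.08 ± 0.20, -0.09 ± 0.13, -0.19 ± 0.21 and -0.42 ± 0.22, and in negative cells -0.15 ± 0.20, -0.09 ± 0.13, -0.23 ± 0.21 and 0.12 ± 0.22, in the same order. Tamoxifen and control arrays overlapped for all 4 genes in all 3 populations.

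The complex partners did not pass the test either. Top3a, the topoisomerase that cuts and passes single strands, read 5.37, 5.19 and 5.28 in control high cells and 4.87, 4.19, 5.70 and 4.78 in tamoxifen high cells, a difference of -0.40 ± 0.27 (SE). The tamoxifen arrays were spread on both sides of the control arrays. Its differences were -0.14 ± 0.27 in low and 0.05 ± 0.27 in negative cells.

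Rmi1, the scaffold that stabilises the topoisomerase, read 4.29, 3.40 and 3.33 in control high cells and 3.58, 3.35, 2.65 and 2.89 in tamoxifen high cells, a difference of -0.56 ± 0.26 with limma's Benjamini-Hochberg adjusted p = 0.285. It narrowed to -0.25 without control high replicate 1, the 1 array of 21 on which Rmi1 lay above the background guide. The small subunit gene Rmi2 differed by -0.11 ± 0.19 in high, -0.07 ± 0.19 in low and -0.27 ± 0.19 in negative cells. The Rmi2 probe set gave the identical value, 4.34, on 6 of the 21 arrays, taken from 4 groups. Rmi2 lay above the guide on 17 of 21 arrays and Recql4 on 19, whereas Blm, Wrn, Recql, Recql5 and Top3a did so on all 21. For Rmi1 a fall from its control level was thus hardly measurable.

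In the fit over all genes, 0 of the 7 partners were called in high cells (adjusted p between 0.285 and 0.940), where 2.73% of all genes were called (1.04% lower and 1.7% higher), 0 of 7 in low cells (0.275 to 0.884), where 8.32% were (2.98% lower and 5.35% higher), and 0 of 7 in negative cells (0.634 to 0.966), where 2.32% were (0.703% lower). With 7 genes and shares this small, the absence of calls does not set the partners apart from other genes. At an unadjusted p under 0.05 the counts were 1, 0 and 0. Tamoxifen and control arrays of high cells were separate for 0 of the 7, against 10.4% of all genes, and likewise for 0 in low (21.2%) and 0 in negative cells (15.3%). Their median difference was -0.05 in high, -0.14 in low and -0.15 in negative cells, beside 0.0013, 0.0076 and -0.0028 over all genes.

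The 95% intervals of the 7 differences reached no lower than -1.11 in high and -0.87 in low cells and no higher than 0.70 and 0.49. The lowest bounds belonged to Rmi1 and Recql5. Wrn, the brightest partner, averaged 6.48 in control high and 6.56 in control low cells, and the background guide was 4.16. A fall as large as that of Blm would have carried any partner under the guide, so it could not have been read in full. Leaving out any array of the groups compared, 0 of the 7 were called in each of the 3 tamoxifen comparisons.

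**Figure D2:**
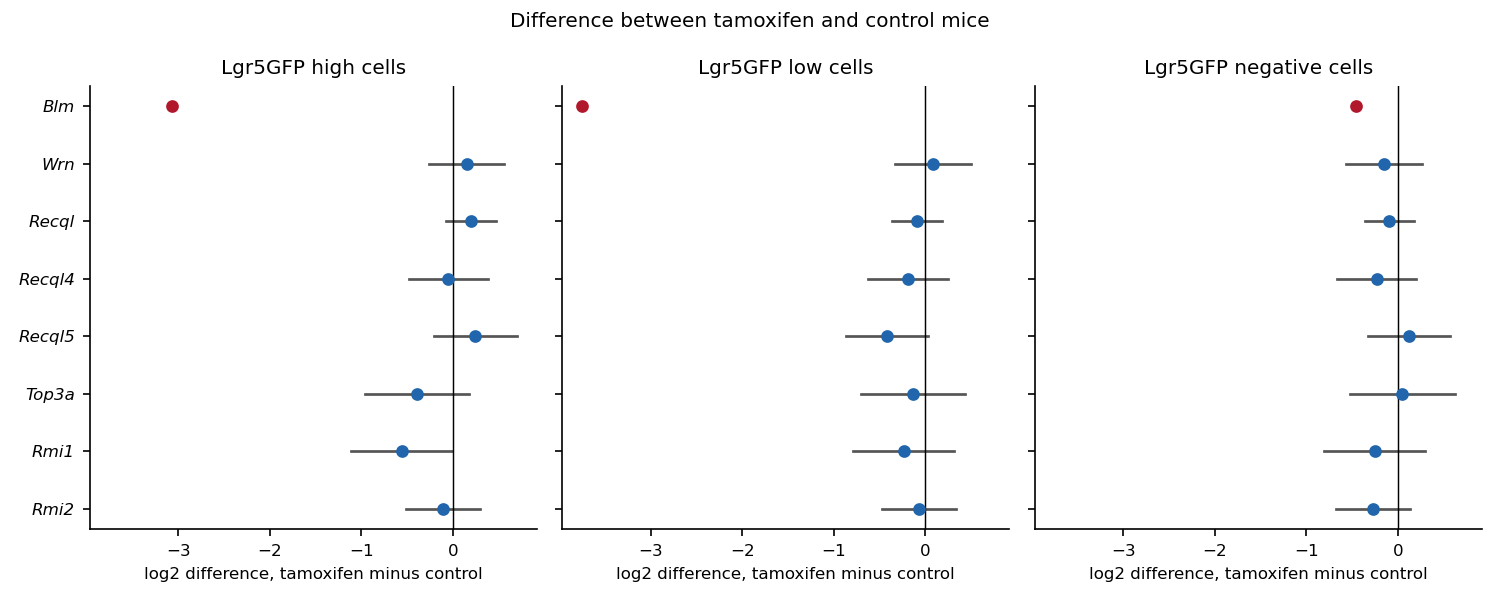
Difference between tamoxifen and control mice in log2 signal (horizontal axis) for the 8 genes in high, low and negative cells; points are estimates, bars are 95% intervals and the vertical line is no difference, with Blm drawn as a point without an interval because it was chosen for this difference. Blm lies at -3.07 and -3.74 in high and low cells, and all 7 partners lie between -0.56 and 0.25 in the 3 panels.

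Blm was higher in control high than in control negative cells by 2.18 ± 0.29 (SE) and in control low than in control negative cells by 2.98 ± 0.29, 4.53-fold and 7.91-fold, again as a description. After tamoxifen the corresponding differences were -0.43 ± 0.25 and -0.31 ± 0.25. The partners showed no step of that size. Their differences in control mice ran from -0.50 to 0.31 between high and negative and from -0.26 to 0.31 between low and negative cells. Between control high and negative cells 1 of the 7 was called, near the 12.3% of all genes, so the count does not set the partners apart. The called gene went the other way from Blm.

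That gene was Recql. Its 3 control high arrays read 4.59, 4.94 and 5.06 and its 3 control negative arrays 5.46, 5.38 and 5.26. The high arrays were all lower, by 0.50 ± 0.14 (SE) on average, 1.42-fold (limma adjusted p = 0.0184), and between arrays of the same title number by 0.87, 0.44 and 0.20. The call was lost in the fit of only the groups compared and without control high replicate 1, control negative replicate 1 or control negative replicate 2 (adjusted p up to 0.139). Recql was also lower in low than in negative control cells (-0.24 ± 0.14) and in high and low than in negative tamoxifen cells (-0.21 ± 0.12 and -0.23 ± 0.12), differences that did not pass the test.

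The counts in the remaining population comparisons were 0 of 7 for low against negative control cells (5.27% of all genes called), 0 of 7 for high against negative tamoxifen cells (10.3%) and 0 of 7 for low against negative tamoxifen cells (2.24%). The groups were separate for 3 of the 7 between control high and negative cells (33.4% of all genes) and for 1 of 7 in each of the other 3 comparisons (27.1%, 10.9% and 7.42%). Recql5 was the separate gene between tamoxifen high and negative cells, at 5.55 to 6.42 against 5.37 to 5.47, 0.44 ± 0.20 higher with adjusted p = 0.183. Whether the tamoxifen difference was itself different in high or low cells from that in negative cells was tested for the 7 partners, and 0 were called in either test (0.248% and 0.839% of all genes).

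Proliferation genes did not follow Blm in control mice. They were highest in control negative cells, in which Blm was low, and lower in control high and low cells, in which Blm was high. The proliferation marker Mki67 averaged 5.26 ± 0.96 (SD, n = 3) in control high, 6.36 ± 1.55 in control low and 8.99 ± 0.22 in control negative cells, and 5.20 ± 0.54 (n = 4), 6.42 ± 0.27 and 7.86 ± 1.20 in tamoxifen high, low and negative cells. All 20 measured genes of the G2 and mitosis list were called lower in control high than in control negative cells, where 7.66% of all genes were called lower, with a median difference of -3.01 beside 0.04 over all genes. Among them were Cdk1, the mitotic kinase (-4.07 ± 0.63, adjusted p = 0.000176), and the spindle checkpoint gene Bub1b (-3.11 ± 0.49, adjusted p = 0.000192).

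Of 24 measured S phase genes 20 were called lower in control high than in control negative cells, among them the primase gene Prim1 (-3.09 ± 0.39, adjusted p = 3.22e-05) and the sliding clamp gene Pcna (-1.75 ± 0.25, adjusted p = 9.18e-05). In control low against negative cells 19 of the 20 G2 and mitosis genes and 17 of the 24 S phase genes were called lower, where 3.41% of all genes were. These counts depended on single arrays, most on control low replicate 1, without which they were 1 and 9. Without control low replicate 2 they were 3 and 9, and without control negative replicate 1, 2 or 3 the G2 and mitosis count was 6, 11 or 9 and the S phase count 9 without replicate 1 or 3. The median of the G2 and mitosis list kept its direction, between -3.08 and -1.89 over the arrays left out in turn. The third control low array stood apart with a G2 and mitosis mean of 6.85 against 4.51 and 5.03, and its Blm signal, 8.24, was the lowest of the 3. Other groups went the other way. In tamoxifen low cells the array with the highest G2 and mitosis mean, 5.95, had the highest Blm, 5.31. In tamoxifen negative cells the array with the lowest mean, 5.80, had the lowest Blm, 4.70. Inside groups there was thus no common direction.

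After tamoxifen 20 of the 20 G2 and mitosis genes and 20 of the 24 S phase genes were called lower in high than in negative cells, where 6.97% of all genes were, although Blm was low in both. In tamoxifen low against negative cells 0 of 20 and 1 of 24 were called lower, where 1.73% of all genes were, with medians of -1.29 and -0.64. The G2 and mitosis count there was 7 without tamoxifen negative replicate 2 and 1 without replicate 1, and the S phase count was 0 in the fit of only the groups compared and without tamoxifen low replicate 1 or tamoxifen negative replicate 3 or 4. The G2 and mitosis means of these 2 groups overlapped, at 5.29 to 5.95 on the low and 5.80 to 8.10 on the negative arrays.

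With all arrays, no gene of either list was called lower with tamoxifen than in control mice in any population. Of all genes 1.04%, 2.98% and 0.703% were called lower in high, low and negative cells. At shares this small the absence of lower calls does not set the lists apart from other genes. In high cells 0 of 20 and 0 of 24 were called either way, where 2.73% of all genes were, with medians of -0.28 and 0.17. Without tamoxifen high replicate 4 or control high replicate 3, 2 of the 24 were called. In low cells 0 of 20 G2 and mitosis genes were called either way (median 0.13), where 8.32% of all genes were. Of 24 S phase genes 9 were called higher, where 5.35% of all genes were, while Blm was lower there. The 9 included the replicative helicase subunit genes Mcm4 (1.83 ± 0.37, adjusted p = 0.00356) and Mcm5 (1.36 ± 0.31, adjusted p = 0.00924). The count was 2 without control low replicate 1, and 2 without control low replicate 2. In negative cells 0 genes of both lists were called, where 2.32% of all genes were, with a G2 and mitosis median of -0.90. Without tamoxifen negative replicate 4, 2 of the 20 were called.

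**Figure D3:**
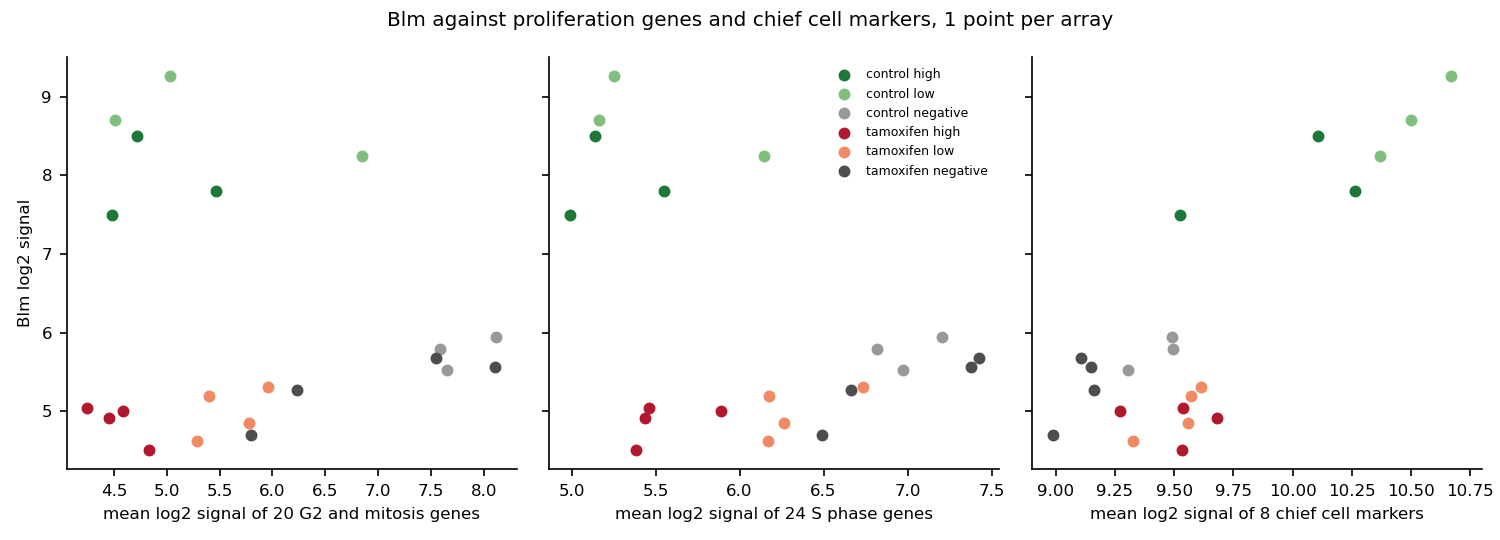
Blm log2 signal (vertical axis) against the mean log2 signal of 20 G2 and mitosis genes, 24 S phase genes and 8 chief cell markers (horizontal axes), with 1 point per array coloured by group. The control negative arrays lie at G2 and mitosis means of 7.58 to 8.12 with Blm under 6, and the tamoxifen negative arrays spread from 5.80 to 8.10. The control low arrays have the highest chief cell means, 10.4 to 10.7. Their mean Blm is the highest of the groups, although their Blm signals overlap those of control high arrays.

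No recombination or repair gene of the 5 lists around BLM was called lower with tamoxifen in any population. Of all genes 1.04%, 2.98% and 0.703% were called lower in high, low and negative cells. At shares this small the absence of lower calls does not set the lists apart from other genes. The list medians, for homologous recombination, Fanconi, junction and helicase, topoisomerase and checkpoint genes in that order, were -0.03, 0.06, 0.02, 0.05 and 0.10 in high cells and 0.28, 0.16, 0.17, 0.21 and 0.45 in low cells. In negative cells they were all below 0, at -0.02, -0.20, -0.15, -0.12 and -0.13. Of 24 measured homologous recombination genes 1, Nbn, a subunit of the complex that senses broken ends, was called higher in high cells (1.27 ± 0.28, adjusted p = 0.0169), where 1.7% of all genes were, and in low cells (0.99 ± 0.28, adjusted p = 0.0289), where 5.35% were. The first call was lost in the fit of only the groups compared and without control high replicate 1, and the second in 7 of 15 alternatives (adjusted p up to 0.121). Of 16 Fanconi anaemia genes, which repair crosslinks and bring in BLM, 0 were called in any of the 3 populations. Of all genes 2.73%, 8.32% and 2.32% were called either way in high, low and negative cells.

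Of 15 junction nucleases and other helicases 1 was called higher in low cells, the chromatin helicase gene Hells (1.77 ± 0.52, adjusted p = 0.0395), a call lost in 7 of 15 alternatives. Of 6 other topoisomerase genes 1 was called higher in high cells, the mitochondrial Top1mt (1.13 ± 0.27, adjusted p = 0.0255; lost in 5 of 15 alternatives). Of 19 checkpoint genes the clamp gene Hus1 was called higher in high cells (1.36 ± 0.25, adjusted p = 0.00443; lost in the fit of only the groups compared) and the kinase gene Atr in low cells (0.87 ± 0.27, adjusted p = 0.0470; lost in 8 of 15). With 0 or 1 gene called per list in high and low cells, beside 1.7% and 5.35% of all genes, these calls describe the genes named and not their lists.

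Between high and negative cells every called gene of these lists was lower in high cells. In control high against negative cells 12 of 24 homologous recombination, 8 of 16 Fanconi, 3 of 15 junction and helicase, 2 of 6 topoisomerase and 9 of 19 checkpoint genes were called lower, where 7.66% of all genes were, and 0 higher. The recombination count was 5 without control high replicate 1 and 7 without control negative replicate 1 or replicate 3, and the Fanconi count was 4 or 5 without those arrays or control high replicate 2. The topoisomerase count was 1 with any 1 of those 4 arrays left out. Examples were the crossover resolvase gene Gen1 (-2.77 ± 0.51, adjusted p = 0.000781), the BRCA1-associated helicase gene Brip1 (-1.52 ± 0.29, adjusted p = 0.00101) and the checkpoint kinase gene Chek1 (-1.86 ± 0.34, adjusted p = 0.000781). In tamoxifen high against negative cells 11, 5, 4, 1 and 4 genes of the same 5 lists were called lower, where 6.97% of all genes were. Without tamoxifen negative replicate 3 these counts were 5, 3, 1, 1 and 2, without replicate 4 the recombination and junction counts were 6 and 2, and the Fanconi count was 0 in the fit of only the groups compared.

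Low cells differed less evenly from negative cells. In control mice 6, 2, 2, 1 and 5 genes of the 5 lists were called lower in low cells, where 3.41% of all genes were. Without control low replicate 1 these counts were 1, 2, 1, 0 and 1, without control low replicate 2 they were 0, 2, 1, 0 and 1, and without control low replicate 3 the recombination and Fanconi counts were 10 and 6. Without control negative replicate 1, 2 or 3 the junction and topoisomerase counts were 1 and 0, and without replicate 1 or 3 the checkpoint count was 1 and the recombination count 1 or 0. In tamoxifen low against negative cells 0, 0, 1, 0 and 1 were called lower, where 1.73% of all genes were. The recombination count was 2 without tamoxifen negative replicate 2 and 1 without replicate 1, the Fanconi count was 1 without replicate 2, and both counts of 1 became 0 in the fit of only the groups compared and without tamoxifen low replicate 1 or tamoxifen negative replicate 3 or 4, and 1 of them without any other tamoxifen low array.

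Genes that lie beside Blm on its chromosome were read in the order RefSeq gives, Man2a2, Fes and Furin on one side and Crtc3 and Iqgap1 on the other. Furin, the protease that matures secreted precursors, lies next to Blm and shared part of its pattern. Its means were 11.1 ± 0.33 (SD, n = 3) in control high, 11.3 ± 0.45 in control low and 8.38 ± 0.44 in control negative cells, and 9.28 ± 0.62 (n = 4), 8.61 ± 0.45 and 7.50 ± 0.96 in tamoxifen high, low and negative cells. The Furin arrays of tamoxifen low cells, 7.98 to 8.94, lay below those of control low cells, 10.8 to 11.6.

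Furin fell with tamoxifen by 2.66 ± 0.41 (SE) in low cells (adjusted p = 0.000343), a call kept in all 15 alternatives, and by 1.77 ± 0.41 in high cells (adjusted p = 0.0240), a call lost in 5 of 15 alternatives, namely the fit of only the groups compared and leaving out tamoxifen high replicate 1 or 3 or control high replicate 1 or 2. In negative cells its difference was -0.88 ± 0.41 (adjusted p = 0.391). The difference in low cells minus that in negative cells was -1.79, a difference that did not pass its own test (adjusted p = 0.219). Unlike Blm, Furin stayed higher in high than in negative cells after tamoxifen, by 1.78 (adjusted p = 0.00397, lost in the fit of only the groups compared).

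The kinase gene Fes, on the far side of Furin, fell with tamoxifen in low cells by 1.64 ± 0.39 (adjusted p = 0.00998, lost without control low replicate 2). It differed by -0.90 ± 0.39 in high cells (adjusted p = 0.237). In control mice it was 2.27 higher in high and 2.19 higher in low than in negative cells (adjusted p = 0.000737 and 0.00330). After tamoxifen Fes, like Furin, stayed higher in high than in negative cells, by 1.69 (adjusted p = 0.00371, lost in the fit of only the groups compared). The Golgi mannosidase gene Man2a2 and the coactivator gene Crtc3 were not called with tamoxifen in any population, and the scaffold gene Iqgap1 rose in low cells by 0.81 ± 0.19 (adjusted p = 0.00982, lost without control low replicate 2). Man2a2 was higher in control high than in control negative cells by 1.90 (adjusted p = 0.00499), a call kept in all 15 alternatives. Over the 21 arrays Pearson's r with Blm was 0.80 for Furin, 0.64 for Fes, 0.24 for Man2a2, -0.09 for Crtc3 and -0.68 for Iqgap1. By this r Furin ranked 79 and Fes 489 among all genes, and by Spearman's rank correlation Furin ranked 718. Many genes elsewhere were thus more like Blm, and a part of the shared location was not tested. The arrays fall into 6 groups, so these coefficients mainly describe the group means.

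The genes most like Blm were ranked by Pearson's r over the same 21 arrays, as a description. Of the 10 highest, 8 carry a gene name other than a predicted or clone name. They were Cited2, a transcriptional coregulator (r = 0.93), the amino acid transporter Slc38a5 (0.92), the antiproliferative gene Tob1 (0.90), the RNA-binding protein gene Hdlbp (0.90), the endoplasmic reticulum protein gene Serp1 (0.90), the G-protein regulator Rgs11 (0.90), the growth hormone receptor Ghr (0.89) and the endoplasmic reticulum ubiquitin ligase Rnf5 (0.89). All 8 averaged highest in control low and next highest in control high cells, an order that follows largely from choosing them for their likeness to Blm. Cited2 averaged 9.04 in control high, 9.46 in control low and 7.47 in control negative cells, and 6.64, 7.12 and 6.98 in the tamoxifen groups.

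Among the 7 partners r with Blm ran from -0.21 for Recql to 0.33 for Rmi1. When the group means were subtracted first, so that only the spread inside groups counted, the 5 most similar genes were Epop (0.79), the collagen gene Col4a1 (0.75), the endoplasmic reticulum prolyl isomerase Fkbp11 (0.75), the ubiquitin-conjugating enzyme Ube2d3 (0.75) and the lymphocyte receptor Ly9 (0.75). Fkbp11 also had an r of 0.85 over all arrays. None of the first 10 genes was among the 10 highest by that measure or by Spearman's rank correlation.

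**Figure D4:**
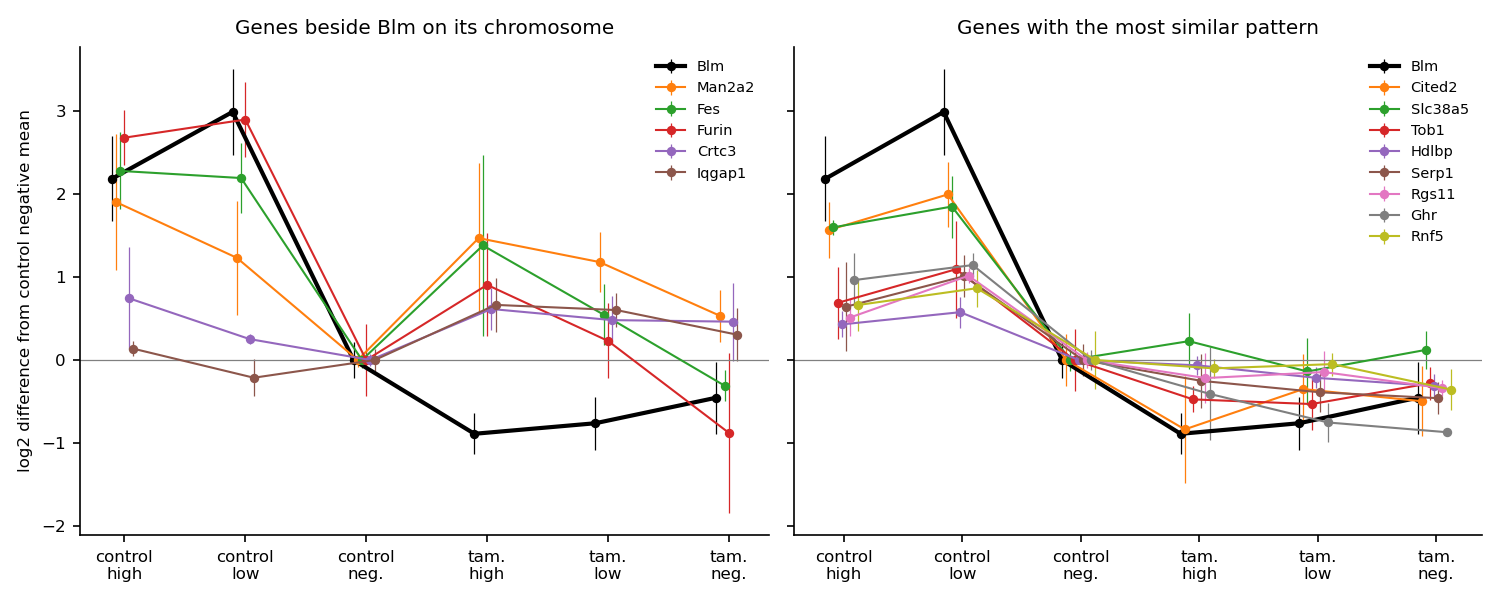
Group means of Blm (black) and of its chromosomal neighbours (left) or of the 8 named genes with the highest r (right), as log2 difference from the control negative mean (vertical axis) for the 6 groups; bars are 1 SD of the arrays of a group. Furin, Fes and Man2a2 rise with Blm in control high and low cells. Blm is at its lowest in the tamoxifen groups, where Furin, Fes and Man2a2 keep part of their excess in high cells.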

How the data were processed

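The deposited table holds log2 signals that the authors made for 41345 probe sets on 21 arrays. RMA, oligo, limma 3.26.8 and R 3.2.3 are named in the submitters' processing notes without their roles. The genome build and probe-level steps were not given in the sources used here. Values ran from 0.958 to 13.55, with array medians of 3.95 to 4.25. Signals of different probe sets are not on 1 scale, so levels were compared within a gene.

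Of the probe sets, 23521 were annotated to 1 gene, 1814 to several and 16010 were not listed. A gene was read from its brightest probe set by mean over all arrays, which left 22180 genes. Recql and Rmi1 each had another probe set that names a second gene too, which was not used.

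Groups follow the titles and the population labels. Another label of the control negative arrays names low cells and was not followed. Group means of all 6 groups were fitted with limma 3.58.1 in R 4.3.3 (lmFit and eBayes, 15 residual and 5.27 prior degrees of freedom), and p-values were adjusted by Benjamini-Hochberg over all genes for each of 9 comparisons, with a threshold of 0.05 (a call). The fit was tested on simulated data. The 8 genes, the gene lists and the comparisons were chosen with earlier results of these data known. Named genes were the 8 members, a panel of markers, the neighbours of Blm in RefSeq, the genes with the highest correlation with Blm (predicted genes, clones and receptor families counted but not named), and up to 3 called genes per list and comparison with the smallest adjusted p. No label says what the numbers shared by titles mark, so arrays were not treated as paired. Alternatives were array weights, a trended and robust eBayes, averaging all probe sets of a gene, cyclic loess, dropping the dimmest 25% of genes, fitting only the groups compared, the title number as a random block, the replicate number as a block, and dropping single arrays.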

Additional observations from a re-analysis of the deposited data

Results flagged for a closer look

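Of 24 groups of 4 tamoxifen arrays tested among the 8 genes, 2 held an array far from the other 3, where chance flags about 1 group in 20. Rmi1 in tamoxifen low cells read 3.94 on replicate 4 against 2.93 to 3.10 on the others, a gap of 0.837 of the whole range where the critical value is 0.829. Rmi2 in tamoxifen negative cells read 3.86 on 1 array against 4.28 to 4.34 on the others, a gap of 0.885 of the range. Both readings lie under the background guide of 4.16.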

How the results depend on the processing

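None of the values computed here reversed a called direction, and 0 of the 7 partners were called with tamoxifen under any alternative run. No alternative moved a Blm difference by more than the pooled SD of its replicates (0.38). Several could not move it, because it is a difference of group means of 1 probe set. These were the trended and robust eBayes, averaging probe sets, dropping the dimmest genes and fitting only the groups compared. As Blm was chosen for this difference, its steadiness is a description only. The 1 partner call, Recql in control high against negative cells, became 0 in the fit of only the groups compared, and the count ran from 0 to 1 over arrays left out. Counts of all genes called moved by over 1.5 times as follows. Fitting only the groups compared gave 12 genes for tamoxifen in high cells (606 with all groups), 1807 for control low against negative cells (1168), 938 for tamoxifen high against negative cells (2283), and 16 and 291 for the tests of whether the tamoxifen difference in high or low cells differed from that in negative cells (55 and 186). Array weights gave 1621 for tamoxifen in negative cells (515), 4810 for control high against negative cells (2728), 2637 for control low against negative cells, and 172 and 499 for those 2 tests; the title number as a random block gave 84 for the first of them. Leaving out 1 array, the counts ran from 215 to 1702 and 990 to 1715 for tamoxifen in high and low cells, 176 to 883 in negative cells, 437 to 1276 for control low against negative cells, 1428 to 2657 and 265 to 553 for tamoxifen high and low against negative cells, and 9 to 267 and 71 to 386 for the 2 tests. The replicate number as a block gave 1128 genes for tamoxifen in high cells and 845 in negative cells, although arrays of different treatments share only a number; within a treatment neither this block nor the title number as a fixed block, an alternative chosen after seeing the data, changed a call of the partners or moved a count of all genes by over 1.5 times, while both gave 5 in place of 2 Fanconi genes in control low against negative cells. Arrays of 1 title number deviated from their group means with correlations of 0.09 to 0.32 in control mice, where each array correlated best with its own number in 18 of 18 cases, and of -0.16 to 0.41 in tamoxifen mice, where it did so in 2 of 20. By Spearman's correlation or with group means subtracted, 0 of the 10 genes most like Blm remained among the 10 highest. Rmi1 was not tested with the dimmest 25% of genes left out. The causes were not tested. Signal limits Rmi1, Rmi2 and Recql4, which lie near or under background.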
